A study of Mus musculus with 36 samples.

Results

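Halofuginone was added to thapsigargin in mouse embryonic fibroblasts with and without the kinase PERK, and the genes whose response to that addition differed between the genotypes are described here. The difference is the Perk-null response (halofuginone with thapsigargin against thapsigargin alone) minus the WT response, so a positive value means a larger rise or a smaller fall in Perk-null cells. It rests on 12 of the 36 RNA-seq libraries of the series, 3 in each of 4 groups: WT with thapsigargin, WT with halofuginone and thapsigargin, PERK -/- (Perk-null) with thapsigargin, and Perk-null with halofuginone and thapsigargin. The other libraries, which cover DMSO, halofuginone alone and BtdCPU, entered the fit, and those with DMSO or halofuginone alone are used for a second comparison that shares no library with the first. The labels give neither dose nor treatment time, and they describe both genotypes only as MEF, so the genotype and any other difference between the 2 lines of cells cannot be told apart. Nothing in the labels says that replicates came from separate cultures, and p-values then measure only the spread between these samples, which may be technical.

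PERK is an ER-resident kinase that phosphorylates eIF2 alpha when unfolded proteins accumulate, which slows translation and raises the transcription factor ATF4 and its targets, the integrated stress response (ISR). Thapsigargin inhibits SERCA, which pumps calcium into the ER, and so activates PERK together with the other ER stress sensors, IRE1 and ATF6. Halofuginone inhibits prolyl-tRNA synthetase, and the uncharged tRNA activates GCN2, another eIF2 alpha kinase, so that Perk-null cells can reach the same phosphorylation by another route. By its title, the series asks how activating a second ISR kinase affects Perk-deficient cells. Most of the genes described below are not on the list of ISR genes used here.

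The 12 libraries held 33509674 to 37178107 counts, and 16065 genes were tested. Eif2ak3, the gene of PERK, checked the labels: its level was 79.1, 78.1 and 104 CPM (counts scaled by library size) in the WT thapsigargin libraries against 26, 25 and 31.2 in the Perk-null ones. Every Perk-null library lay below every WT library, and the difference in the response of Eif2ak3 was -0.00 on the log2 scale (SE 0.252), which did not pass the threshold. The 11 fibroblast markers summed to 13854 to 24351 CPM, whereas those of leukocytes (7 genes), endothelium (5), epithelium (6), skeletal muscle (4) and adipocytes (3) summed to at most 16.6 CPM in any of the 12 libraries. The 4 neural markers summed to 20.9 to 227 CPM, with 2 or 3 of the 4 at 0 in each group. Cdkn2a (encoding p16 and ARF, brakes on the cell cycle) stood at 8.29, 10.2 and 9.29 CPM in WT DMSO libraries and at 473, 464 and 433 in Perk-null ones, and Trp53 (p53) at 284, 252 and 336 against 40.8, 36.2 and 39.3. These levels separate the cells before any treatment, and their part in the results below was not tested.

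Adding halofuginone to thapsigargin changed 7276 genes in WT cells (45.3% of those tested, at an edgeR adjusted p under 0.05) and 8462 in Perk-null cells (52.7%). The response itself differed between the genotypes, as tested by the interaction, in 5259 genes (32.7%), 2548 with a positive difference (15.9%) and 2711 with a negative one (16.9%). Of these, 5196 lay outside the ISR list. Outside the ISR means here only absent from that chosen list, of which 72 genes were tested. Whether genes off the list, Gadd45a and Snhg12 for example, respond through the ISR was not tested. Outside the ISR, more differences were carried by Perk-null cells alone than by WT cells alone: in 2147 genes (41.3%) the response passed the threshold in Perk-null cells only, and in 1212 genes (23.3%) in WT cells only. In 714 genes both genotypes responded in opposite directions, in 1009 both responded in the same direction by different amounts, and in 114 neither response passed on its own. These classes concern only halofuginone added to thapsigargin. A gene without that response in a genotype can still respond there to halofuginone alone. With the ISR genes included, the shares of all tested genes were 13.5% (Perk-null only), 7.56% (WT only), 4.56% (opposite), 6.36% (same direction) and 0.71% (neither). Over the 5196 genes the Perk-null response was the larger in size in 3317. Among Perk-null-only genes the median size of the log2 change was 0.900 in Perk-null and 0.162 in WT cells, and among WT-only genes 0.777 (WT) and 0.163 (Perk-null). When same-numbered replicates were treated as pairs, genes of all lists responding in opposite directions numbered 1174 in place of 732, and those responding in the same direction 1881 in place of 1022.

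**Figure D1:**
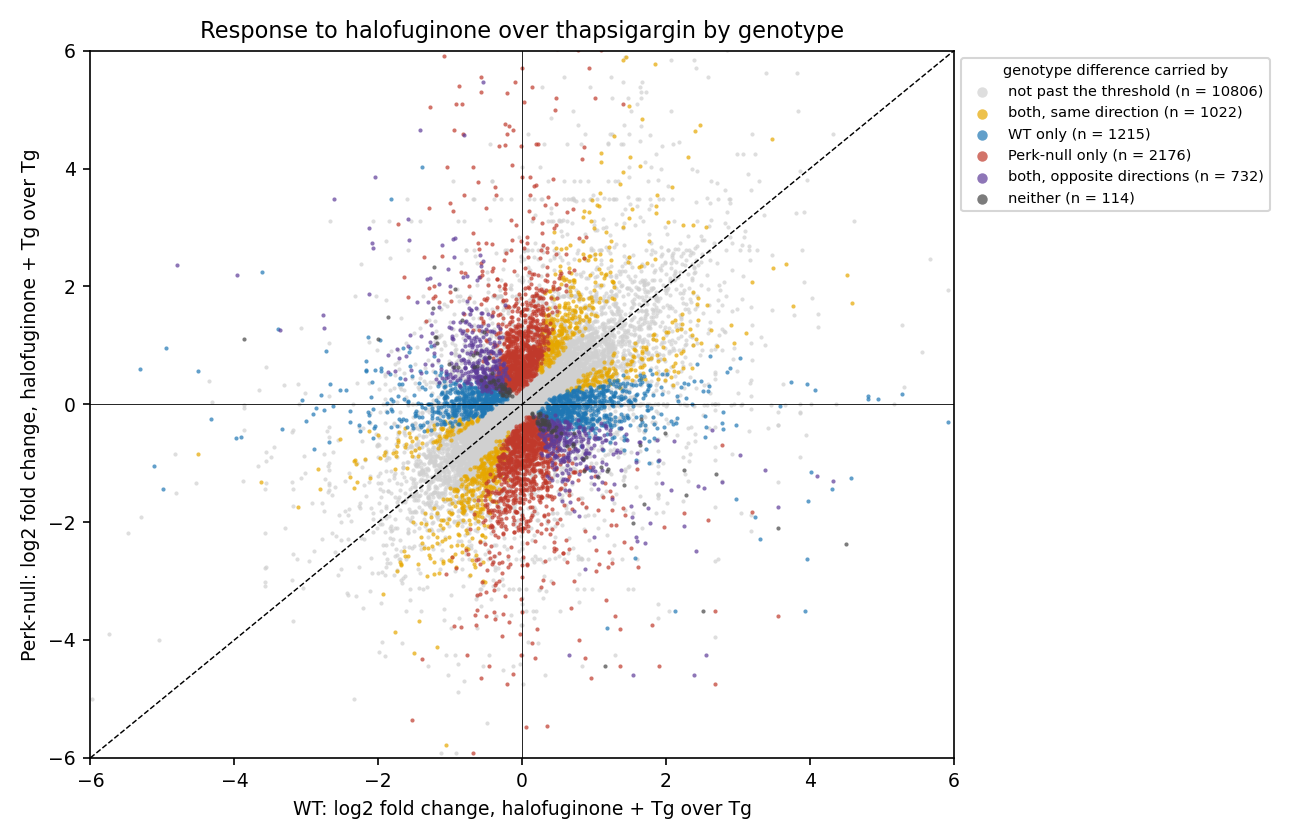
Log2 fold change of each of the 16065 tested genes on adding halofuginone to thapsigargin, in WT cells (horizontal) and Perk-null cells (vertical), coloured by which genotype carries a difference past the threshold; 35 genes lie beyond 6 on an axis and the dashed line marks equal responses. Perk-null-only genes (2176, red) spread along the vertical axis and WT-only genes (1215, blue) along the horizontal one.

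The ISR readouts give the scale against which the other genes can be read. Of the 72 ISR genes tested, 62 had a positive difference and 1 a negative one, with a median of 1.23 against -0.04 over all tested genes. Ddit3, which encodes the transcription factor CHOP and overlaps Mars and Mbd6 in the annotation, stood at 381, 344 and 309 CPM with thapsigargin and 212, 238 and 160 with both compounds in WT cells, and at 47.4, 60.3 and 35.8 and then 195, 252 and 201 in Perk-null cells. The WT libraries with halofuginone lay below those without and the Perk-null ones above, and the difference was 2.94 (SE 0.292, edgeR adjusted p 5.21e-09). Asns, encoding asparagine synthetase, rose in Perk-null cells only (by 1.33, difference 1.34, SE 0.146), and so did Trib3, a pseudokinase that restrains the response (by 2.45, difference 2.71, SE 0.376). Chac1, a glutathione-degrading enzyme, rose in both genotypes, by 0.91 (WT) and 2.44 (Perk-null). Atf4 itself fell by 0.54 in WT cells and its difference was 0.74 (SE 0.151). Psat1, of serine synthesis, rose by 0.41 in Perk-null cells with a difference of 0.69 (SE 0.158). Its fall in WT cells (-0.28) passed the threshold, but not without any 1 of 3 libraries (-0.25 and edgeR adjusted p 0.125 without WT halofuginone and thapsigargin replicate 3). Eif2ak4, the gene of GCN2, did not pass the threshold in either genotype (differences of -0.01 in WT and -0.02 in Perk-null cells).

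Among the genes carried by WT cells, 3 with the most positive and 3 with the most negative difference were followed in full. Hmox1, encoding the heme-degrading oxidative stress enzyme heme oxygenase 1, stood at 429, 374 and 394 CPM with thapsigargin and at 70.3, 78 and 46.1 with both compounds in WT cells, and at 92.5, 110 and 116 and then 95.5, 115 and 103 in Perk-null cells. The WT groups did not overlap, while the Perk-null groups overlapped each other well below the WT thapsigargin level. In WT cells Hmox1 fell by 2.62 on the log2 scale, and the difference was 2.60 (SE 0.233, edgeR adjusted p 1.10e-09). St6galnac4, a sialyltransferase, went from 26.9, 23.3 and 27.1 to 5.92, 6.52 and 5.30 CPM in WT cells and stayed between 11.6 and 15.4 in the Perk-null libraries of both groups (difference 1.94, SE 0.245). Zfp760, a zinc finger gene, had the same pattern at a lower level, 9.87 to 12.9 CPM falling to 2.52 to 3.75 in WT cells, with a difference of 1.91 (SE 0.360).

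The WT-only genes with negative differences rose in WT cells from low levels. Amigo2, a cell adhesion protein that overlaps Pced1b, rose from 5.63, 7.29 and 5.38 to 31.5, 26.7 and 48.4 CPM in WT cells, while the Perk-null libraries stayed between 1.61 and 3.03 CPM (difference -3.09, SE 0.345, edgeR adjusted p 4.17e-08). Ramp3, an accessory protein of calcitonin-family receptors, rose from 17.4, 12.8 and 9.77 to 47.2, 49.2 and 45.9 CPM in WT cells and lay between 0.742 and 1.47 CPM in the Perk-null libraries (difference -2.41, SE 0.383). Wnt9a, a Wnt ligand, rose from 2.35, 4.16 and 3.69 to 12.1, 14.9 and 16.7 CPM in WT cells, against 1.42 to 3.63 CPM in Perk-null cells (difference -2.42, SE 0.389). In all 3 genes the WT libraries with halofuginone lay above every other library of the 4 groups. The Perk-null libraries of Amigo2 and Ramp3 with halofuginone lay below those without. These changes (-0.55 and -0.57) did not pass the threshold, though that of Amigo2 did with paired replicates (-0.55, edgeR adjusted p 0.0187).

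Genes carried by Perk-null cells included several that thapsigargin-treated Perk-null cells held far below WT. Snhg12, a host gene of small nucleolar RNAs whose counts can include the overlapping Snora16a, Snora44, Snora61 and Snord99, stood at 11, 13.2 and 9.53 CPM in Perk-null thapsigargin libraries and at 131, 128 and 136 with halofuginone. The WT libraries lay between 75.3 and 115 CPM in both groups, so Perk-null cells went from below to above WT (difference 3.44, SE 0.307, edgeR adjusted p 1.10e-09). Arid5a, an RNA-binding protein that stabilises inflammatory mRNAs, went from 4.06, 5.18 and 5.42 to 44.1, 42.2 and 42.3 CPM in Perk-null cells, against 69.2 to 91.8 CPM over both WT groups (difference 3.28, SE 0.207, edgeR adjusted p 1.36e-12). Usp18, which removes the ubiquitin-like ISG15 from proteins, went from 0.569, 0.846 and 0.400 to 8.81, 7.61 and 8.61 CPM in Perk-null cells. Its WT libraries were uneven, 30.5, 46.7 and 8.24 and then 28.1, 23.4 and 4.56 CPM, and the difference of 4.39 had an SE of 1.17. Its change in WT cells, -0.61, passed the threshold only with paired replicates (-0.66, edgeR adjusted p 0.0417).

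The largest negative differences of this class were falls in Perk-null cells. The WT means with DMSO, halofuginone alone and thapsigargin were 24.9, 10.7 and 18.5 CPM for Dennd3. They were 83.9, 33.3 and 34.5 CPM for Tns1 and 11.4, 2.86 and 5.40 CPM for Smad6. Dennd3, an activator of the GTPase RAB12, went from 38.6, 35.8 and 47.3 to 3.04, 3.82 and 3.76 CPM in Perk-null cells, whereas WT libraries lay between 11.6 and 19.9 CPM (difference -3.12, SE 0.367, edgeR adjusted p 9.52e-08). Tns1, encoding the focal adhesion protein tensin 1, went from 43.2, 40 and 58.9 to 5.85, 7.88 and 8.08 CPM in Perk-null cells, and the WT groups overlapped between 25.6 and 52.7 CPM (difference -2.77, SE 0.367). Smad6, an inhibitor of BMP signalling, fell from 13.9, 16 and 18.6 to 3.07, 1.96 and 3.58 CPM in Perk-null cells (difference -2.93, SE 0.548). Its WT libraries overlapped, and WT replicate 3 with both compounds stood apart at 14.1 CPM against 3.84 and 4.04.

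Opposite responses placed the genotypes on different sides. Cdsn, the adhesion protein corneodesmosin, went from 26, 20.9 and 28.1 down to 5.28, 6.93 and 4.99 CPM in WT cells and from 7.99, 8.07 and 10.1 up to 55.1, 72.9 and 79 CPM in Perk-null cells. The difference, 5.11 (SE 0.458, edgeR adjusted p 1.10e-09), was the largest among genes meeting the level criteria for naming. Avil, the actin-binding protein advillin, crossed in the same way, from 17.1 to 20.3 down to 2.13 to 6.03 CPM in WT cells and from 2.11 to 3.55 up to 14.7 to 24.6 CPM in Perk-null cells (difference 4.82, SE 0.481). Kif21b, a kinesin motor, fell in WT cells from 141, 158 and 196 to 51.8, 79.8 and 32.9 CPM and rose in Perk-null cells from 1.35, 1.77 and 2.27 to 14.1, 17.9 and 15.8, without reaching the WT range (difference 4.73, SE 0.457).

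In the other direction, Pfkfb4, which makes an activator of glycolysis, rose from 6.28, 7.97 and 5.61 to 18.2, 19.1 and 20.1 CPM in WT cells and fell from 10.8, 9.76 and 8.68 to 2.28, 2.51 and 2.99 CPM in Perk-null cells (difference -3.44, SE 0.255, edgeR adjusted p 3.10e-11). Mpp2, a membrane scaffold protein, rose from between 0.722 and 1.24 to between 3.35 and 5.10 CPM in WT cells and fell from between 18.2 and 23 to between 6.16 and 9.94 CPM in Perk-null cells (difference -3.52, SE 0.418). Dusp1, a phosphatase that switches off MAP kinases, rose by 2.64 in WT cells, from 13.6, 13.3 and 10.2 to 83.4, 66.9 and 80.1 CPM (difference -3.07, SE 0.262). Its Perk-null change was small: 46, 48.3 and 41.7 against 34.7, 28.7 and 37.1 CPM, a log2 change of -0.44. That fall did not pass when any 1 of 9 single libraries was left out (-0.34 and edgeR adjusted p 0.173 without Perk-null halofuginone and thapsigargin replicate 2), so the WT rise carries most of the Dusp1 difference.

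Where both genotypes moved the same way, the larger movement was in Perk-null cells in 729 of 1009 genes outside the ISR. Gadd45a, a stress-induced growth arrest gene that overlaps E230016M11Rik, rose from 250, 239 and 190 to 597, 562 and 485 CPM in WT cells and from 14.5, 18.6 and 14.4 to 381, 373 and 359 CPM in Perk-null cells (difference 3.27, SE 0.306, edgeR adjusted p 2.09e-09). Rnd1, a small GTPase, rose from between 90.6 and 108 to between 189 and 249 CPM in WT cells and from between 13.2 and 19.2 to 193 CPM in each Perk-null library (difference 2.51, SE 0.274). Tnfsf11, encoding the cytokine RANKL, rose from 3.81, 3.89 and 3.58 to 12.1, 9.19 and 8.56 CPM in WT cells and from 0.840, 0.627 and 0.267 to 8.95, 7.04 and 10.7 CPM in Perk-null cells (difference 2.53, SE 0.412). For these 3 genes the Perk-null libraries went from well below WT to the WT range or near it.

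Falls and a smaller rise made up the negative differences of the class. Btd, encoding biotinidase, fell from 39.8, 40 and 41.8 to 5.40, 6.27 and 3.36 CPM in Perk-null cells (difference -2.49, SE 0.286), and Asap3, a regulator of ARF GTPases, from 29.3, 26.5 and 27.4 to 4.42, 3.57 and 2.38 CPM (difference -2.46, SE 0.302). The smaller WT falls, -0.52 for Btd and -0.55 for Asap3, each lost the threshold without any 1 of 3 (Btd) or 4 (Asap3) libraries, with edgeR adjusted p 0.199 for Btd without WT halofuginone and thapsigargin replicate 1 and 0.200 for Asap3 without replicate 2. Il11, a cytokine gene overlapping Tmem190, rose from 4.98, 6.97 and 4.50 to 133, 125 and 118 CPM in WT cells and only from 0.948, 1.36 and 1.44 to 6.35, 4.36 and 6.46 CPM in Perk-null cells. Its WT libraries with halofuginone lay far above the rest, and the difference was -2.32 (SE 0.317, edgeR adjusted p 1.04e-06).

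**Figure D2:**
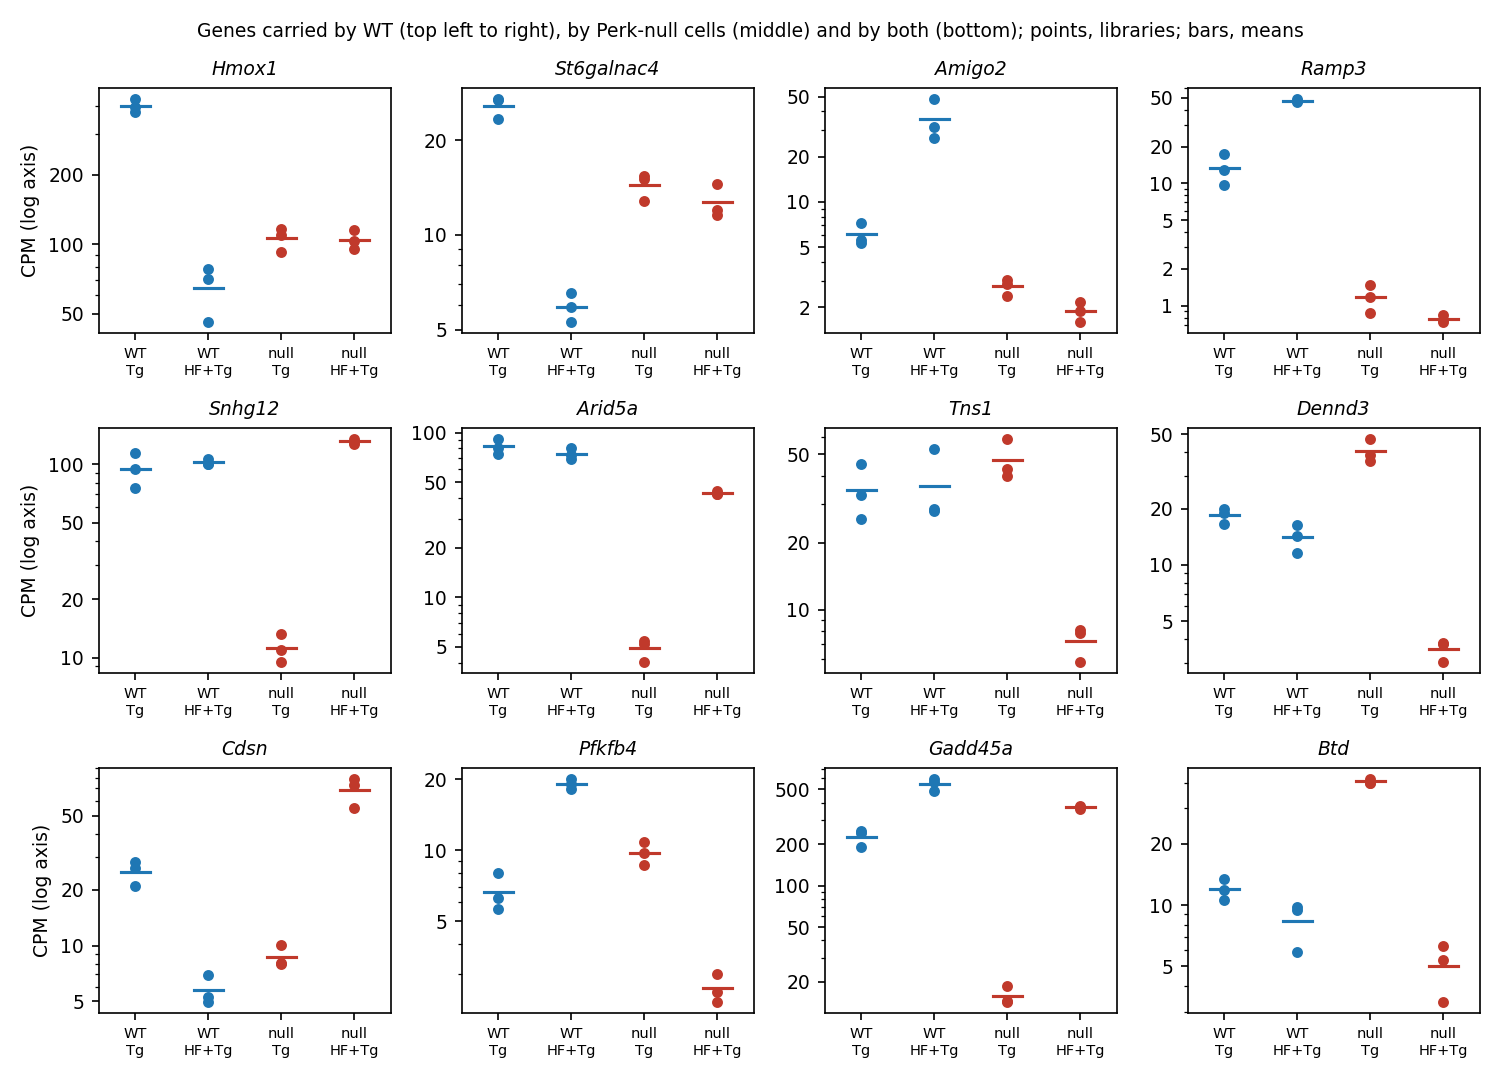
CPM on a log axis of 12 genes in the 12 libraries (HF, halofuginone; Tg, thapsigargin; null, Perk-null), with points for libraries and bars for group means. In the top row mainly the WT groups separate, in the middle row mainly the Perk-null groups, and in the bottom row both. For Amigo2 and Ramp3 in the top row the Perk-null groups also lie apart, lower with halofuginone.

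Gene lists were then compared for how many members differed, and the member called most positive or most negative is so among those past the threshold. The counts stand beside the share of all tested genes with a positive (15.9%) or negative (16.9%) difference. The most one-sided list outside the ISR was nucleolar ribosome biogenesis, the factors that transcribe, modify and assemble ribosomal RNA in the nucleolus: 54 of 60 had a positive difference and 0 a negative one. The count of 0, from edgeR, was also 0 with DESeq2 and at an unadjusted p under 0.05, and the members' differences ran from -0.09 to 1.95. The median difference was 1.15, made of 1.12 in Perk-null cells, where 51 rose and 1 fell, and -0.08 in WT cells, where 12 rose and 14 fell. Relative to WT DMSO, the median level of the list over members was 0.48 ± 0.12 (log2, SD, n = 3) with thapsigargin and 0.37 ± 0.13 with both compounds in WT cells, and -0.45 ± 0.10 and 0.66 ± 0.09 in Perk-null cells. The Perk-null thapsigargin libraries thus lay below all other libraries with DMSO, halofuginone, thapsigargin or both. Libraries with BtdCPU were not compared.

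Nop56, a core protein of the box C/D snoRNPs that overlaps Idh3b and Snord57, stood at 290, 316 and 252 CPM with thapsigargin and 826, 880 and 852 with both compounds in Perk-null cells, against 596 to 770 CPM over both WT groups (difference 1.65, SE 0.148, edgeR adjusted p 1.17e-09). Polr1b, the second largest subunit of RNA polymerase I, rose from 55.1, 49.7 and 58.3 to 144, 165 and 147 CPM in Perk-null cells (difference 1.62, SE 0.239), and the helicase gene Ddx21 from 227, 218 and 189 to 627, 699 and 698 CPM (difference 1.5, SE 0.206). Neither passed the threshold in WT cells. These members, like the other genes named beyond the stated rule, were chosen after their values were seen. Wdr12, the member with the largest difference (1.95, SE 0.312), overlaps Carf and fell in WT cells from 112, 98.2 and 84.6 to 66, 68.7 and 37.4 CPM while it rose in Perk-null cells from 35.1, 42.5 and 27.1 to 83.1, 91.7 and 61.6. Myc, whose protein is a textbook activator of ribosome biogenesis, rose from 322, 253 and 329 to 609, 540 and 602 CPM in WT cells and from 51.3, 52.4 and 49.6 to 450, 424 and 447 CPM in Perk-null cells (difference 2.15, SE 0.265, edgeR adjusted p 2.00e-07). The Perk-null thapsigargin libraries were the lowest for Myc by a wide margin.

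MYC and related proteins bind the E-box CACGTG, a palindrome that reads the same on both strands, and its letters were searched in promoter windows from 250 bases before to 50 after each gene's RefSeq start (GRCm38.p6). The first listed window held it in 12 of 52 members with a window (23.1%), against 7.24% of all 27025 windows and 9.88% of the 11158 tested genes with a window. The share was not particular to this list: it was 27.5% (11 of 40) for autophagy and lysosome genes, whose differences were mainly negative, 21.4% for growth arrest and p53 targets, 20% for the ISR and 17.9% for the sterol list. Only these windows carry coordinates here, since the submitters' notes name GRCm39 for the files. The windows of Nop2, an rRNA methyltransferase, and Wdr43, a component of the small-subunit processome overlapping Snord53, are shown with the E-box in capitals. Both genes have the most positive differences among the eligible members of the 12. Eligible members passed the threshold, averaged 2 or more in log2 CPM and lay on the chromosomes considered for printing. The windows lie at chr6:125131633-125131932 on the plus strand and chr17:71615965-71616264 on the plus strand.
Nop2: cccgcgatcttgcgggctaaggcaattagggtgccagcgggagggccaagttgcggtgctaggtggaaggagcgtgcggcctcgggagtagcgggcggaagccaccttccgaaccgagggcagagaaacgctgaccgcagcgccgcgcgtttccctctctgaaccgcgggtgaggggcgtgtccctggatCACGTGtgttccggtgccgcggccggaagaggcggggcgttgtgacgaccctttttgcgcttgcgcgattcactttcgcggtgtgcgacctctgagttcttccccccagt
Wdr43: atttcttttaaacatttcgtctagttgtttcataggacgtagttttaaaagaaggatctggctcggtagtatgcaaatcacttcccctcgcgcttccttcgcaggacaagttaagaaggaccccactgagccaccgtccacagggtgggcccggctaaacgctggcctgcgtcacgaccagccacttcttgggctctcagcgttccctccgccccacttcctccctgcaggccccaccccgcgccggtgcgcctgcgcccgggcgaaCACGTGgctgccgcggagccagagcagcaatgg
Nop2 went from 158, 154 and 137 to 322, 358 and 315 CPM in Perk-null cells and from 347, 275 and 326 to 229, 211 and 210 CPM in WT cells (difference 1.69, SE 0.174). Wdr43 rose from 187, 191 and 154 to 758, 784 and 808 CPM in Perk-null cells and from 566, 472 and 541 to 835, 786 and 672 CPM in WT cells (difference 1.60, SE 0.180). Nop2 crossed from below WT to above it, and Wdr43 from below WT into its range. A match in the letters describes the window and does not show binding.

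**Figure D3:**
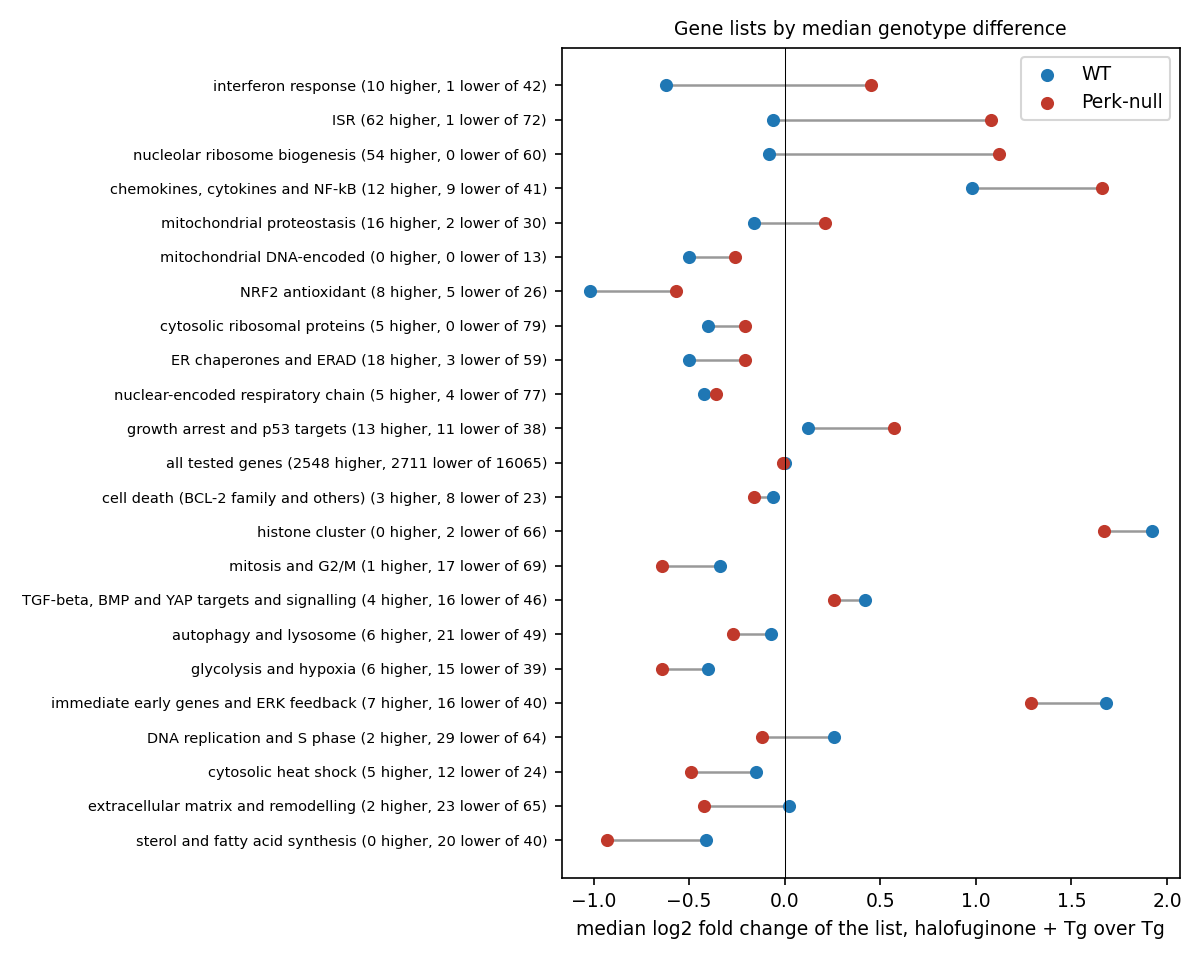
Median log2 fold change of each gene list on adding halofuginone to thapsigargin in WT (blue) and Perk-null cells (red), ordered by the median difference, with the number of members past the threshold in each direction. The ribosome biogenesis and ISR medians stand near 0 in WT and above 1 in Perk-null cells, and the sterol list is the lowest by difference.

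Genes of protein folding in the ER divided by whether the WT fall or the Perk-null rise made the difference. Of 59 ER chaperone and ERAD genes, 18 had a positive and 3 a negative difference (median 0.19). In WT cells 43 fell and 2 rose, and in Perk-null cells 22 fell and 12 rose. Hspa5, encoding the main ER chaperone BiP and overlapping Rabepk, went from 6364, 5910 and 6202 to 14039, 15730 and 12760 CPM in Perk-null cells and from 22341, 19330 and 18473 to 16463, 19132 and 12035 CPM in WT cells (difference 1.54, SE 0.200, edgeR adjusted p 4.80e-07). The WT groups overlapped; the WT change of -0.34 missed the threshold at an edgeR adjusted p of 0.0505 and passed with paired replicates (-0.36, 0.00119). Dnajb9, a co-chaperone of BiP, rose by 0.87 in Perk-null and fell by 0.60 in WT cells (difference 1.47, SE 0.212). Atf6, encoding the ER stress sensor, rose in Perk-null cells only, from 33.1, 32.1 and 34 to 120, 134 and 130 CPM (difference 1.69, SE 0.232).

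Pdia4, a disulfide isomerase that overlaps the miRNA gene Mir704, and Hyou1, a large ER chaperone, had positive differences carried by WT cells. Pdia4 fell from 2167, 1873 and 2196 to 967, 1042 and 588 CPM in WT cells and stood at 998 to 1246 CPM across the Perk-null libraries (difference 1.26, SE 0.200). Hyou1 fell from 1936, 1719 and 2013 to 1088, 1196 and 783 CPM in WT cells, against 634 to 820 CPM across the Perk-null libraries (difference 0.88, SE 0.183). Wfs1, the ER membrane protein wolframin, had the largest difference of the list, 2.03 (SE 0.308), from 87.8, 82.9 and 95.9 to 39.2, 38.6 and 26.8 CPM in WT cells. Its Perk-null rise of 0.68 did not pass without Perk-null thapsigargin replicate 2 (0.54, edgeR adjusted p 0.0659). Txndc11, a thioredoxin-domain protein overlapping Snn, had the most negative difference, -0.72 (SE 0.201), with a WT rise of 0.42 that was lost without WT thapsigargin replicate 2 (0.36, edgeR adjusted p 0.0782) or 1 other library. So Hspa5 and Atf6 are carried by Perk-null cells, while Pdia4, Hyou1 and most of the Wfs1 difference are carried by the WT fall.

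Mitochondrial protein folding and import had 16 positive and 2 negative differences among 30 genes (median 0.44, with -0.16 (WT) and 0.21 (Perk-null)). Dnaja3, the mitochondrial co-chaperone, rose from 82, 80.6 and 81.1 to 186, 199 and 189 CPM in Perk-null cells and stayed between 142 and 168 CPM in WT cells (difference 1.23, SE 0.161, edgeR adjusted p 5.40e-07). Spg7, a subunit of an inner-membrane protease, had the most negative difference, -0.43 (SE 0.120), which did not pass when genes of low count were kept. Of 77 nuclear-encoded respiratory chain genes, 5 had a positive and 4 a negative difference (median 0.09), and both shares are under those of all genes. The positive count was 1 without Perk-null thapsigargin replicate 3 and 12 without WT thapsigargin replicate 3, and it moved by over 1.5 times without any 1 of 7 libraries, so no direction is read from it. Uqcrh, a hinge subunit of complex III, fell from 184, 211 and 167 to 63.5, 55 and 40 CPM in Perk-null cells, against 24.2 to 31.1 CPM in WT cells (difference -1.73, SE 0.327). Atp5g1, a c-ring subunit of ATP synthase, fell by 0.92 in WT cells only, and its difference of 0.74 was lost without Perk-null thapsigargin replicate 3 (0.65, edgeR adjusted p 0.0593) or 1 other library. Of the 13 mRNAs encoded by mitochondrial DNA, 0 differed by edgeR or DESeq2, and 1 had an unadjusted p under 0.05.

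**Figure D4:**
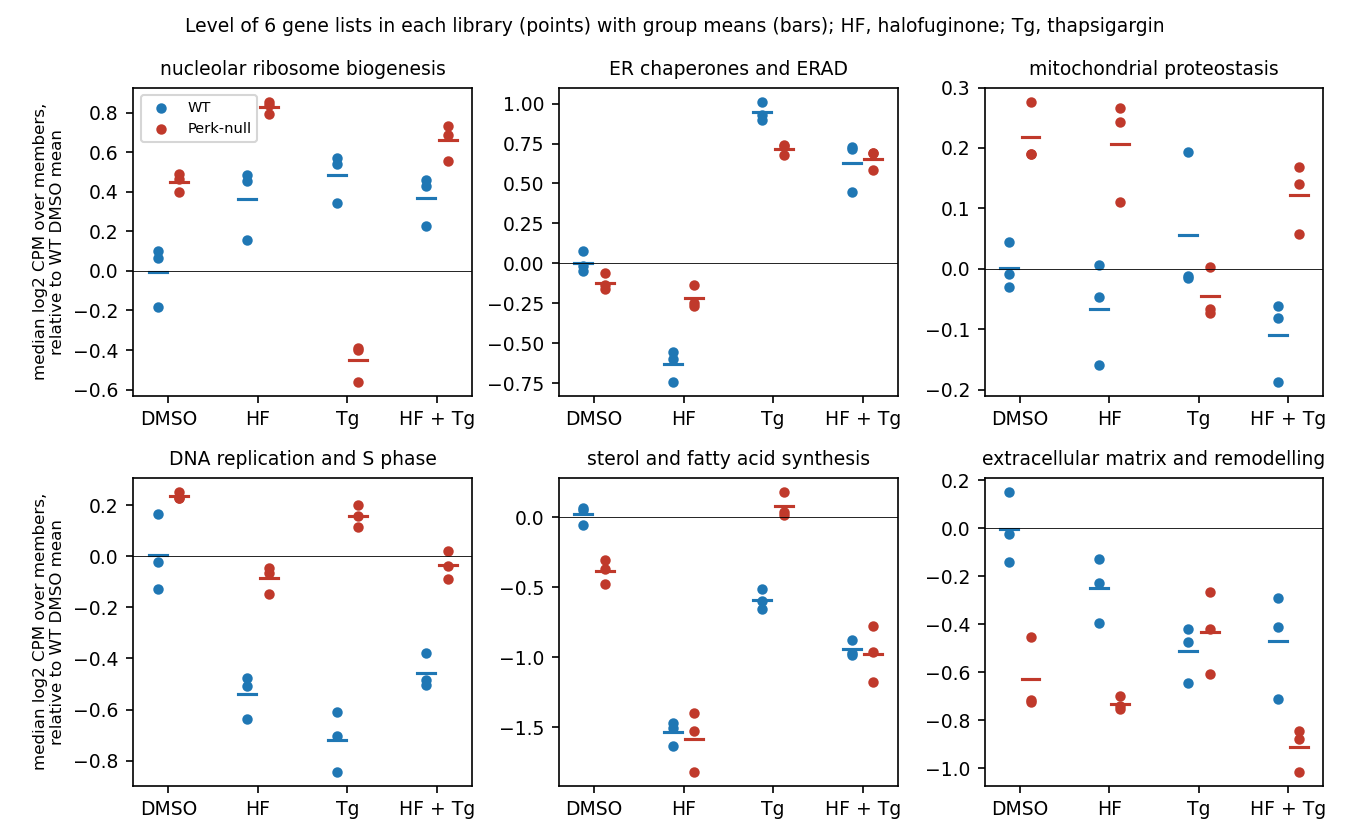
Median log2 CPM over the members of 6 gene lists in each library, relative to the mean of the WT DMSO libraries, for DMSO, halofuginone (HF), thapsigargin (Tg) and both; points are libraries and bars group means. Ribosome biogenesis is lowest in the Perk-null thapsigargin libraries, and the sterol list is highest there among the treated groups.

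DNA replication moved the other way. Of 64 genes, 29 had a negative and 2 a positive difference, with a median of -0.43 from 0.26 in WT cells (30 rose, 11 fell) and -0.12 in Perk-null cells (10 rose, 24 fell). The level of the list relative to WT DMSO was -0.72 ± 0.12 with thapsigargin and -0.46 ± 0.07 with both compounds in WT cells, and 0.16 ± 0.04 and -0.04 ± 0.06 in Perk-null cells (SD, n = 3), so the genotypes moved towards each other. Mcm5, of the replicative helicase, went from 381, 348 and 309 to 416, 447 and 458 CPM in WT cells and from 568, 585 and 556 to 462, 462 and 412 CPM in Perk-null cells (difference -0.70, SE 0.124). Brca1, of homologous recombination, crossed likewise, up by 0.61 in WT and down by 0.63 in Perk-null cells (difference -1.24, SE 0.164, edgeR adjusted p 6.03e-07). Rad54l, a DNA translocase of the same repair pathway that overlaps Lrrc41, fell in Perk-null cells only, from 54.4, 52.6 and 56.8 to 27.2, 27 and 24.3 CPM (difference -1.09, SE 0.160). Mcm3 rose in both, by 0.91 (WT) and 0.32 (Perk-null, difference -0.58, SE 0.138).

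E2f7, a repressor among the E2F factors, had the most negative difference of the list (-1.41, SE 0.274): it rose from 24.9, 25.9 and 29.9 to 69.2, 57.9 and 97.5 CPM in WT cells and stood at 41.3 to 54.4 CPM in Perk-null cells with or without halofuginone. Dtl, a substrate receptor of a ubiquitin ligase that overlaps Ints7, rose in WT cells from 50.3, 52 and 51.3 to 96, 98.3 and 109 CPM and lay between 63.2 and 78.9 CPM in Perk-null cells (difference -1.15, SE 0.136, edgeR adjusted p 9.75e-08). Ung, the uracil-DNA glycosylase gene overlapping Alkbh2, had the most positive difference, 1.63 (SE 0.417), from a WT fall of 1.58. E2F factors bind sites such as TTTCCCGC and TTTGGCGC, and 17 of 52 members with a window (32.7%) held 1 of them on either strand, against 1.63% of all windows and 2.85% of the tested genes with a window. The windows of E2f7 (chr10:110745189-110745488, plus strand) and Dtl (chr1:191575495-191575794, minus strand) are printed with the match in capitals, on the opposite strand in E2f7. These genes have the most negative differences among those of the 17 that met the criteria used for the E-box windows.
E2f7: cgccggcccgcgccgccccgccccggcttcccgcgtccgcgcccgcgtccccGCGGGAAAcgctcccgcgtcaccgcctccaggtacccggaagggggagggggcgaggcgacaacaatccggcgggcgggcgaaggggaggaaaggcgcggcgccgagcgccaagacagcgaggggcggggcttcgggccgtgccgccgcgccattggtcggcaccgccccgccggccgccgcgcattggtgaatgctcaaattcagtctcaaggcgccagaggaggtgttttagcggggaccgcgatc
Dtl: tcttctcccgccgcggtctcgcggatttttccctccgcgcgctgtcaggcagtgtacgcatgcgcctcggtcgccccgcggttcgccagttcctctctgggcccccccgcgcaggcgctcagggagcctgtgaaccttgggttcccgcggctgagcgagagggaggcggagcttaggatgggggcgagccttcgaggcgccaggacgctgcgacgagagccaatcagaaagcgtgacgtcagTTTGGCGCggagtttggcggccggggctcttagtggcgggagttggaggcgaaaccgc
For both genes the WT rise carried the difference. The share of windows with a match belongs to the list as a whole, and members that differed were not compared with the rest. As above, a match does not show binding.

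Mitosis and G2/M genes had 17 negative differences and 1 positive among 69 (median -0.24). The count of negative ones was 10 without WT halofuginone and thapsigargin replicate 3. Ncaph, a condensin subunit, fell in Perk-null cells from 169, 153 and 172 to 71.9, 76.9 and 74.1 CPM, down to the WT range of 67.4 to 91.2 CPM (difference -1.40, SE 0.161, edgeR adjusted p 6.69e-08). Its WT change of 0.25 passed only with paired replicates (0.24, edgeR adjusted p 0.0360). Cdc20, the activator of the anaphase-promoting complex, overlaps Elovl1 and had the single positive difference (0.71, SE 0.201), since it fell by 1.49 in WT and by 0.78 in Perk-null cells. Of 66 histone cluster genes, whose near-identical copies make single counts uncertain, 2 had a negative difference and 0 a positive one by edgeR, with 0 positive also by DESeq2 and at an unadjusted p under 0.05. The negative count was 1 without any 1 of 7 libraries, WT halofuginone and thapsigargin replicate 3 among them. The WT median was 1.92 and the Perk-null median 1.67. Hist3h2a, overlapping Trim17, had the larger of the 2 differences (-1.99, SE 0.431) from a WT rise of 2.39.

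Growth arrest and p53-target genes split, with 13 positive and 11 negative differences among 38 (7 negative without Perk-null thapsigargin replicate 3). Trp53 itself fell from 335, 301 and 322 to 125, 135 and 134 CPM in WT cells and rose from 27.9, 28.6 and 29.5 to 59, 57.6 and 63.2 CPM in Perk-null cells (difference 2.34, SE 0.127, edgeR adjusted p 3.70e-14). The groups were far apart in both conditions. Aen, a p53-induced nuclease, rose in Perk-null cells only, from 11.5, 12.7 and 10.7 to 34.8, 36.8 and 32.6 CPM (difference 1.72, SE 0.161). Cdkn1a, encoding the cell-cycle inhibitor p21, rose in WT cells by 0.90 and in Perk-null cells by 0.85, and its difference of -0.05 (SE 0.199) did not pass. Trp53inp1, a p53-induced autophagy gene, fell by 1.45 in Perk-null cells (difference -2.10, SE 0.388), and its WT rise of 0.65 was lost without any 1 of 4 libraries (0.48, edgeR adjusted p 0.182 without WT thapsigargin replicate 1).

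The extracellular matrix list had 23 negative and 2 positive differences among 65, with a median of -0.51 (0.02 in WT and -0.42 in Perk-null cells). In Perk-null cells 32 fell and 11 rose, and in WT cells 13 fell and 21 rose. Col1a1, the alpha 1 chain of type I collagen, went from 4046, 3603 and 5270 to 2067, 2049 and 2430 CPM in Perk-null cells, while the WT groups overlapped between 2573 and 4001 CPM (difference -0.91, SE 0.247, edgeR adjusted p 0.00457). Sparc, a matrix-binding glycoprotein, fell from 868, 854 and 1164 to 379, 418 and 418 CPM (difference -1.28, SE 0.219), and Col6a1, of type VI collagen, from 400, 347 and 465 to 156, 163 and 178 CPM (difference -1.37, SE 0.130), both in Perk-null cells only. P4ha1, a collagen prolyl hydroxylase, fell to 110 CPM in each Perk-null library from 225, 223 and 243 (difference -1.0, SE 0.158). The 11 fibroblast markers, among them Col1a1 but not Col6a1, summed to 13854 to 15142 CPM in Perk-null libraries with both compounds. With thapsigargin they summed to 19276 to 24113 CPM. In bulk libraries fewer cells of a type and less RNA per cell cannot be told apart.

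Of the matrix genes that differed, 10 were Perk-null only, 4 WT only, 3 opposite and 8 in the same direction. Timp3, an inhibitor of matrix proteases, was WT only. It rose from 41.5, 49.7 and 53.3 to 141, 121 and 205 CPM in WT cells and lay between 22.6 and 34.2 CPM in Perk-null cells (difference -1.49, SE 0.300). Nid2, the basement membrane protein nidogen 2 (overlapping 2700060E02Rik), had the most negative difference, -1.59 (SE 0.262), from a Perk-null fall of 1.91. Its WT change of -0.33 passed with paired replicates (-0.35, edgeR adjusted p 0.0176). The collagenase gene Mmp13 had the most positive difference, 1.78 (SE 0.581, edgeR adjusted p 0.0175), with uneven WT libraries of 43, 60.3 and 15.5 and then 142, 139 and 62 CPM. That difference did not pass without WT thapsigargin replicate 2 (1.40, edgeR adjusted p 0.0703) or either of 2 other libraries.

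Among TGF-beta, BMP and YAP genes, 16 of 46 had a negative and 4 a positive difference (median -0.30). In WT cells 27 rose, whereas in Perk-null cells 20 rose and 12 fell. Inhba, the subunit of activin A, rose from 44.9, 40.2 and 65.5 to 335, 255 and 393 CPM in WT cells and from 47.5, 47 and 46.3 to 96.2, 77.6 and 105 CPM in Perk-null cells (difference -1.72, SE 0.315, edgeR adjusted p 7.06e-05). The WT rise was the larger one. Bmp4, a BMP ligand, fell in Perk-null cells from 24.9, 31.9 and 47.3 to 8.18, 7.36 and 16 CPM and lay below 1 CPM in WT cells (difference -3.23, SE 0.661). The WT response of Bmp4 (1.51) rests on 0.0555 to 0.907 CPM and was lost without WT halofuginone and thapsigargin replicate 3 (1.00, edgeR adjusted p 0.256) or either of 2 other libraries. Grem1, which binds and blocks BMPs, rose in Perk-null cells from 169, 162 and 217 to 324, 323 and 374 CPM (difference 1.19, SE 0.222).

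The sterol and fatty acid synthesis list had the lowest median difference, -0.62, with 20 of 40 genes negative and 0 positive by edgeR (also 0 with DESeq2 and at an unadjusted p under 0.05). It fell in both genotypes, by a median of 0.41 in WT cells (24 fell, 2 rose) and of 0.93 in Perk-null cells (35 fell). Relative to WT DMSO the list stood at -0.59 ± 0.07 with thapsigargin in WT and 0.08 ± 0.09 in Perk-null cells, and at -0.95 ± 0.06 and -0.98 ± 0.20 with both compounds (SD, n = 3). The genotypes were apart under thapsigargin and overlapped with halofuginone. Dhcr7, of the last step of cholesterol synthesis, fell from 43.2, 41.5 and 51.3 to 9.19, 9.68 and 7.21 CPM in Perk-null cells and from 10.8, 12.5 and 10.4 to 5.22, 6 and 7.62 CPM in WT cells (difference -1.55, SE 0.302). Nsdhl, a sterol dehydrogenase, fell from 95.8, 108 and 100 to 23.4, 25.2 and 16.5 CPM in Perk-null cells and by 0.88 in WT cells (difference -1.34, SE 0.235). Hsd17b7, another enzyme of the pathway, had the most negative difference, -1.57 (SE 0.259), from a WT rise of 1.00. Its Perk-null fall of -0.57 was lost without Perk-null thapsigargin replicate 3 (-0.43, edgeR adjusted p 0.0772).

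Cytosolic heat shock genes had 12 negative and 5 positive differences among 24 (median -0.47). Hspa8, the constitutive HSP70 gene, which overlaps Snord14c, Snord14d and Snord14e, fell from 958, 961 and 912 to 300, 328 and 283 CPM in Perk-null cells, while WT libraries lay between 421 and 496 CPM (difference -1.72, SE 0.114, edgeR adjusted p 3.14e-12). Perk-null libraries thus went from above WT to below it. Hspa1b, an inducible HSP70 gene whose counts are uncertain because of its near-identical copy Hspa1a, fell from 70.6, 67.2 and 46.1 to 10.8, 8.56 and 6.01 CPM in Perk-null cells (difference -2.58, SE 0.361). Fkbp4, an HSP90 co-chaperone, fell in WT cells only, by 0.92 (difference 0.82, SE 0.154). The NRF2 list, of oxidative stress defence, had 8 positive and 5 negative differences among 26, with medians of -1.02 in WT and -0.57 in Perk-null cells. Hmox1 was its most positive member, and Gstm1, a glutathione transferase, its most negative (-1.16, SE 0.277), falling from 61.6, 58 and 68.3 to 11, 13.6 and 10.8 CPM in Perk-null cells and by 1.25 in WT cells. The negative count was 2 without WT thapsigargin replicate 1 or 2, WT halofuginone and thapsigargin replicate 3 or Perk-null thapsigargin replicate 1 or 3, and 3 without Perk-null halofuginone and thapsigargin replicate 1.

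Autophagy and lysosome genes had 21 negative and 6 positive differences among 49 (median -0.36), the positive count being 2 without Perk-null halofuginone and thapsigargin replicate 2 and 3 without replicate 1 of that group. Gla, the lysosomal alpha-galactosidase, fell from 29.2, 32.2 and 25.5 to 8.71, 10.5 and 10.6 CPM in Perk-null cells (difference -1.44, SE 0.256), and Mitf, a transcription factor of the TFEB family, rose by 0.82 there and fell by 0.88 in WT cells (difference 1.70, SE 0.318). Glycolysis and hypoxia genes had 15 negative and 6 positive differences among 39 (median -0.38). Without WT thapsigargin replicate 2 the negative count was 9. Hk2, a hexokinase, was the most positive, rising from 19.9, 20.9 and 26.1 to 105, 104 and 112 CPM in Perk-null cells (difference 2.68, SE 0.327, edgeR adjusted p 1.69e-07), the reverse of Pfkfb4 above. Slc16a3, a lactate transporter overlapping Csnk1d, was its most negative member, at 4.96 to 6.03 and then 0.371 to 0.573 CPM in Perk-null cells and under 1 CPM in WT cells. Cell death genes had 8 negative and 3 positive differences among 23. Casp4, an inflammatory caspase, rose from 1.17, 1.34 and 1.47 to 9.42, 8.86 and 8.35 CPM in Perk-null cells (difference 3.24, SE 0.370), and its WT change of -0.50 passed only with paired replicates (-0.51, edgeR adjusted p 0.00159). Bik, the most negative, lay under 1 CPM in all 12 libraries.

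Of 79 cytosolic ribosomal protein genes, many with pseudogene copies, 5 had a positive and 0 a negative difference by edgeR (7 and 0 by DESeq2, 9 and 0 at an unadjusted p under 0.05), with a median of 0.19. The 5 became 21 with paired replicates, 15 without WT thapsigargin replicate 3, 9 without WT halofuginone and thapsigargin replicate 1, 8 without WT thapsigargin replicate 2, and 3 without Perk-null thapsigargin replicate 3 or Perk-null halofuginone and thapsigargin replicate 2. Rpl10a, of the large subunit, rose in Perk-null cells from 66.5, 73.7 and 60.9 to 127, 116 and 114 CPM, against a WT range of 85 to 116 CPM (difference 0.89, SE 0.167).

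Immediate early and ERK feedback genes rose in both genotypes, by medians of 1.68 (WT) and 1.29 (Perk-null), with 16 of 40 differing negatively and 7 positively. The negative count was 9 without WT halofuginone and thapsigargin replicate 3 or WT thapsigargin replicate 1, and 10 without Perk-null halofuginone and thapsigargin replicate 2. Fosl2, an AP-1 subunit, rose from 71.9, 82.7 and 80.9 to 250, 221 and 286 CPM in WT cells and to 109, 102 and 126 from 72.2, 77.2 and 83.4 CPM in Perk-null cells (difference -1.15, SE 0.206). Hbegf, an EGF receptor ligand, rose in WT cells by 3.48 and in Perk-null cells by 4.50 (difference 1.02, SE 0.275), and Dusp6, an ERK phosphatase overlapping Gm34921, by 1.77 and 2.78 (difference 1.01, SE 0.258). Etv5, an ERK-induced transcription factor, rose in Perk-null cells only, from 1.98, 2.02 and 0.988 to 10.3, 11.5 and 9.38 CPM (difference 2.62, SE 0.300, edgeR adjusted p 6.56e-08), and stayed below the WT range of 21.3 to 30.1 CPM.

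Chemokine, cytokine and NF-kB genes had 12 positive and 9 negative differences among 41, with medians of 0.98 in WT and 1.66 in Perk-null cells. Ptgs2, the inducible cyclooxygenase, rose from 630, 554 and 587 to 2615, 1769 and 2069 CPM in WT cells and from 109, 99.2 and 98.6 to 901, 868 and 1125 CPM in Perk-null cells (difference 1.37, SE 0.326). Ptx3, a secreted pattern-recognition protein overlapping Veph1, crossed: it fell from 194, 161 and 144 to 75.8, 98.7 and 87.8 CPM in WT cells and rose from 18.9, 23.2 and 34.6 to 175, 168 and 198 CPM in Perk-null cells (difference 3.75, SE 0.359, edgeR adjusted p 3.00e-09). Nfkbia, an inhibitor of NF-kB and also its target, rose in WT cells only, from 37, 47.2 and 46.8 to 124, 114 and 183 CPM (difference -1.57, SE 0.215). Ccl20, a chemokine and the most positive member, was at 0, 0.164 and 0 CPM with thapsigargin and at 3.71, 3.24 and 4.27 with both compounds in Perk-null cells, against 9.47 to 23 CPM in WT cells. Cxcl14, the most negative, was at 0 in each WT thapsigargin library and at most 1.14 CPM in the other 9, and its call was lost without WT halofuginone and thapsigargin replicate 2 (edgeR adjusted p 0.172) or any of 3 other libraries.

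The interferon response list had the highest median difference of the pathway lists, 1.24. Among its 42 genes, 10 differed positively (23.8%, against 15.9% of all tested genes) and 1 negatively. Its level was uneven among WT libraries: 0.61 to 1.75 relative to WT DMSO with thapsigargin and -0.36 to 0.97 with both compounds, while Perk-null libraries held between -0.12 and -0.01 and between 0.24 and 0.44. The positive count was 4 without WT halofuginone and thapsigargin replicate 3 or WT thapsigargin replicate 2, 20 without WT thapsigargin replicate 3, and 28 with paired replicates. Ifit2, an interferon-induced inhibitor of translation, had the one negative difference (-0.62, SE 0.231), lost without WT halofuginone and thapsigargin replicate 1 (-0.42, edgeR adjusted p 0.190) or any of 6 other libraries. Single WT libraries thus move the number of interferon genes called by over 1.5 times.

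Seen as the gap between the genotypes, 10537 genes (65.6%) differed under thapsigargin, with 31.5% of all tested genes higher and 34.1% lower in Perk-null cells. With both compounds 9984 (62.1%) differed, 28.9% higher and 33.2% lower. Of the 5196 genes outside the ISR with a different response, 1651 (31.8%) had a gap past the threshold under thapsigargin only, 1221 (23.5%) with both compounds only, and 68 in neither. The gap narrowed in 1009, widened in 545 and changed direction in 702, with both gaps past the threshold. The absolute gap was smaller with halofuginone in 3063 of the 5196, and its median size went from 0.712 to 0.563 on the log2 scale. Nucleolar ribosome biogenesis showed a gap that turned: 50 of 60 genes were lower and 1 higher in Perk-null cells under thapsigargin, and 7 were lower and 26 higher with both compounds. For DNA replication 56 of 64 were higher in Perk-null cells under thapsigargin and 37 with both compounds, and for the extracellular matrix list the number lower in Perk-null cells went from 22 to 38 of 65. A smaller gap was thus the more frequent outcome among these 5196 genes, but in the matrix list the number of genes under WT was larger with halofuginone.

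The genotype difference in the response to halofuginone alone, taken against DMSO, shares no library with the difference over thapsigargin, and it passed the threshold in 5615 genes (35%), 2807 positive and 2808 negative. Over all 16065 genes the 2 differences had Pearson's r of 0.19 and Spearman's rho of 0.24, a description across genes, which are not independent replicates. The classes differed in how far they matched. Of 1215 WT-only genes, 1153 (94.9%) had the same sign with halofuginone alone, 797 of them past the threshold and 4 genes past it with the opposite sign. Of 2176 Perk-null-only genes, 1227 (56.4%) had the same sign, with 287 past the threshold in the same direction and 183 in the opposite one. Genes with opposite responses resembled the WT-only class (91.8% with the same sign), whereas genes with the same direction in both had the same sign in 36%, with 394 past the threshold in the opposite direction.

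The change of the genotype difference with thapsigargin was tested directly, and it passed in 3842 genes (23.9%). By class it passed in 83 of 1215 WT-only genes (6.83%), 1103 of 2176 Perk-null-only genes (50.7%), 278 of 732 with opposite responses (38%) and 716 of 1022 with the same direction (70.1%). Ribosome biogenesis differed in 46 of 60 genes, each with a larger difference over thapsigargin, and its median difference with halofuginone alone was 0.00. For Nop56, halofuginone alone gave 662, 664 and 607 CPM in WT and 964, 1039 and 947 CPM in Perk-null cells, from 338, 289 and 369 and from 616, 601 and 597 CPM in DMSO, a difference of -0.26 that did not pass. The sterol list had a median difference of 0.56 with halofuginone alone, opposite in sign to that over thapsigargin, and 23 of 40 genes passed the direct test. With halofuginone alone Dhcr7 stood at 4.03, 2.70 and 5 CPM in WT and 4.69, 6.24 and 3.92 CPM in Perk-null cells. Its DMSO means were 50.5 (WT) and 35.7 CPM (Perk-null), and the difference was 0.84 (SE 0.308). Relative to WT DMSO, the sterol list stood at -1.54 ± 0.09 in WT and -1.58 ± 0.21 in Perk-null cells with halofuginone alone. In DMSO it stood at 0.02 ± 0.06 and -0.38 ± 0.09 (SD, n = 3). Among WT-carried genes, St6galnac4 (1.58), Zfp760 (1.86), Amigo2 (-1.99) and Ramp3 (-1.68) differed past the threshold with halofuginone alone in the same direction, and their change with thapsigargin did not pass. Wnt9a and Hmox1 were exceptions. For Wnt9a neither the difference with halofuginone alone (-0.94) nor its change with thapsigargin (-1.48) passed, and for Hmox1 the difference alone (0.53) did not pass while the change (2.07, SE 0.327) did.

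**Figure D5:**
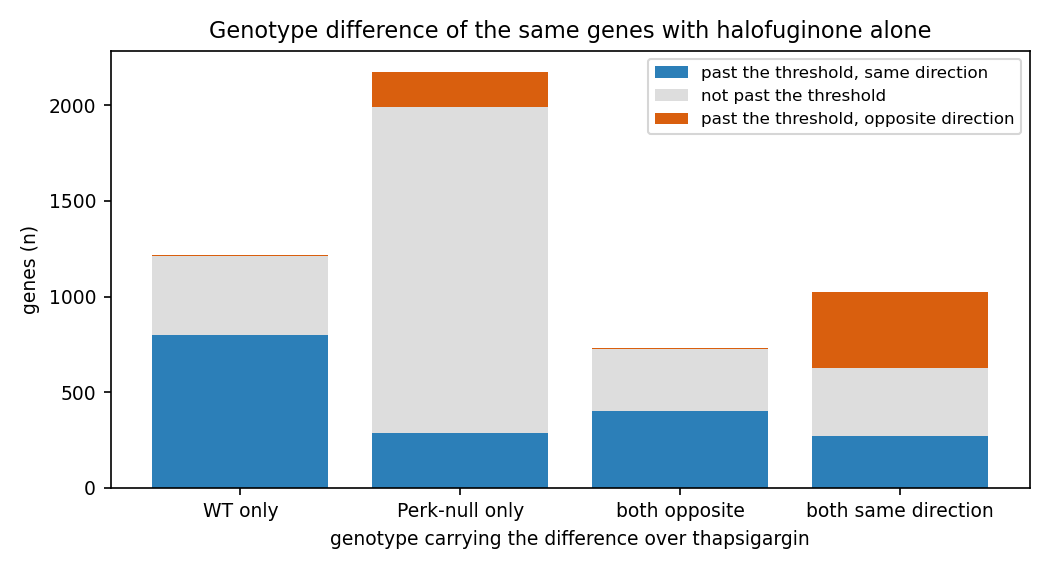
For the genes of each carrier class over thapsigargin (horizontal), the number whose genotype difference with halofuginone alone passed the threshold in the same direction (blue), in the opposite direction (orange) or not at all (grey). Most WT-only genes are blue (797 of 1215), and 1706 of the 2176 Perk-null-only genes are grey.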

How the data were processed

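RNA of mouse embryonic fibroblasts was sequenced (the protocol in the labels speaks of both rRNA depletion and mRNA selection), and the deposited table holds estimated counts per gene symbol, with 0.025 in place of 0 (50.6% of values) and 2.69% of the other values not whole. The submitters' processing notes name GRCm39 and DESeq without versions; the aligner, counter and use of strand are not given in the sources used here. The placeholder was set to 0 and counts were rounded to whole numbers. The 27 entries whose symbols had become date numbers (0.206 to 0.278% of counts) were left out, and 86 entries sharing 39 symbols were summed. Libraries totalled 32454257 to 37178107 counts.

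All 36 libraries were fitted with 12 group means (edgeR 4.0.16, filterByExpr, TMM, quasi-likelihood test, 24 residual degrees of freedom, R 4.3.3), with a Benjamini-Hochberg threshold of 0.05 over 16065 genes. CPM are scaled by TMM. Columns prefixed Plus and Minus were read as PERK WT and -/-. Per-library list levels are medians over members of log2 CPM (prior count 2). Named genes are 10 fixed readouts; the 3 most positive and 3 most negative genes outside the ISR in each of 4 carrier classes with log2 CPM averaging 2 or more, more than 3 counts in each of the 12 libraries and no predicted-gene symbol; and the most positive and most negative called member of each list. Others were chosen after their values were seen. The members and lists were chosen with earlier results of these data known. The interaction test was tried on simulated counts, with 100 genes changed at each of 2 sizes among 15919, far fewer than were called in the data. It recovered 69% of differences of 1 on the log2 scale and 6% of those of 0.5, with 3 false calls among 78. A gene that did not pass may thus still differ. With so few changed genes the adjusted threshold was stricter than in the data, so these rates do not measure the sensitivity reached there. Alternatives were DESeq2 1.42.0, library-size scaling, no filter, a fit of the compared groups only, a replicate block and leaving out each library.

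Replicate numbers are shared by the groups. Deviations of same-numbered thapsigargin and combination libraries correlated at 0.16, 0.20 and 0.31 in WT cells, which was counted as pairing. In Perk-null cells they correlated at 0.03, 0.018 and 0.13, which was judged too weak to count. Promoter windows come from RefSeq (GRCm38.p6), matched by symbol: 14250 tested genes matched by current and 736 by older symbol, and 11158 had a window.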

Additional observations from a re-analysis of the deposited data

Results flagged for a closer look

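The response to halofuginone differed between the genotypes, by the interaction test, in 5259 genes over thapsigargin and in 5615 genes without it, and the genotype difference itself depended on thapsigargin in 3842 genes.

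Among the genes named by the stated rule, 9 had genotype differences past the threshold in opposite directions with and without thapsigargin. The change between the differences was tested directly. Ccl20 also met this description but was left aside, since its mean was 0 CPM in WT DMSO libraries. Genes chosen after their values were seen are not counted, although Myc, Atf6, Col6a1 and Dhcr7, among others, did the same. The change, on the log2 scale, was 1.40 for Atf4, 3.85 for Ddit3 and 2.5 for Chac1 of the ISR. It was 2.12 for the ER chaperone gene Hspa5, 4.64 for Arid5a, 4.19 for Gadd45a, 3.62 for Rnd1 and 4.43 for Mmp13. In these 8 genes the Perk-null response exceeded the WT response over thapsigargin and fell short of it without. For Gstm1 the change was -2.39, with the directions the other way round.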

How the results depend on the processing

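The count of genes whose response differed between the genotypes, 5259, was 5178 with library size as the only scaling, 5589 with DESeq2, 4979 without a filter on low counts and 4991 when the fit held the compared groups alone, and 4421 to 5183 when single libraries were left out. Leaving out single libraries gave 6025 to 7043 genes for the response in WT cells, 7543 to 7865 in Perk-null cells, 9752 to 9954 and 8997 to 9581 for the gaps without and with halofuginone, 4658 to 5728 for halofuginone alone and 3370 to 4041 for the dependence on thapsigargin. The classes ranged over 821 to 1337 (WT only), 1823 to 2238 (Perk-null only), 534 to 749 (opposite), 803 to 918 (same direction) and 90 to 131 (neither). When the fit held the compared groups alone, the response passed in 6027 genes in WT cells in place of 7276. In Perk-null cells it passed in 9203 in place of 8462. WT-only genes then numbered 903 in place of 1215, and Perk-null-only genes 2429 in place of 2176. The split between these classes thus moved with the libraries in the fit. With a replicate block the difference passed in 6859 genes, opposite responses numbered 1174 and responses in the same direction 1881; the other main counts stayed within 1.5 times. The pairing was clear in WT cells only. In Perk-null cells same-numbered deviations correlated at 0.03, 0.018 and 0.13, so the block fits a number with little shared deviation there. For the named genes, no response or genotype difference past the threshold changed sign under the alternatives run. Other genes were not checked for sign. With 3 libraries a group, the spread between libraries sets the precision of these comparisons; depth was similar throughout (33509674 to 37178107 counts), and the cause of the moves was not tested.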
